A study of Pimephales promelas with 10 samples.

Results

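The 200 transcripts described here were those whose signal differed least between untreated pieces of cultured fathead minnow testis (Pimephales promelas is a small fish used in toxicology). They were chosen from 15208 probes by 3 steps. First, 11935 probes well above background on all 10 arrays were kept. Second, the 200 brightest in controls were left out, which left 11735 candidates. Last, the 200 candidates with the smallest standard deviation (SD) over the 6 control arrays were taken. Their level and their SD over controls are therefore descriptions of how they were picked, and neither was tested.

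The study asked what progesterone does to the testis transcriptome. The control group held 6 explants (numbers 2, 4, 5, 7, 8 and 10) cultured for 12 h, for which the labels name no vehicle. The progesterone group held 4 explants (numbers 4, 5, 7 and 8) cultured for 12 h with progesterone at 1e-06 M. Total RNA of each explant was hybridised to its own one-colour array. The labels do not say which fish an explant came from, give no strain, age or genotype, and both groups lack the blood supply and pituitary input of an intact testis. P-values thus reflect only how these explants varied, some of which may be technical. Since an explant mixes cell types, fewer cells of a type and less RNA per cell cannot be told apart.

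Progesterone is a steroid formed early in the pathway that leads to androgens, and it can also act through receptors in the nucleus or at the cell membrane. Transcripts that hold a steady level between samples are of practical use, because quantitative PCR and array work report other genes relative to them. Such reference transcripts often encode parts of the ribosome, the cytoskeleton or central metabolism. Whether any of those is among the 200 could not be read from the data. The files name probes by assembly contig or sequence record, and 0 of the 15208 identifiers matched the RefSeq genes of this fish. Names were compared and not sequences, so the 0 does not show that these transcripts lack a RefSeq gene. Without gene names the testis label was not checked against marker genes.

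Values are log2 of the processed spot intensity minus the 75th percentile of the probes on the same array, so that 0 is a bright transcript at that percentile and 1 is a doubling of signal. The 75th percentile lay between 1382 and 3927 intensity units over the 10 arrays, 82.6% to 95.2% of probes were well above background, and 0 probes were saturated. The arrays lay on 4 slides, each scanned once, of which slides 1 and 3 held both groups. Slide 1 held only 1 control (number 8) with progesterone 5 and 8, so differences within it rest on that control. Slide 3 held controls 2 and 7 with progesterone 4 and 7.

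On the 75th percentile scale used here, the constant transcripts were mostly bright ones. Their mean level in controls ran from -6.49 to 4.38 with a median of 1.13, against a median of -1.89 over the candidates, and 154 of the 200 (77%) lay above the 75th percentile, as did 30.3% of the candidates. With the candidates divided into deciles by level (decile 1 the dimmest), 57 of the constant transcripts came from decile 9 and 55 from decile 10. The 4 dimmest deciles together gave 10. This lean to bright transcripts depended on the scale. When the same rule chose 200 on other scales, 83 lay above the 75th percentile with median scaling and 33 with 25th percentile scaling. With quantile normalisation, the authors' values and normexp correction the counts were 160, 151 and 136. Over all candidates the spread between controls on the 75th percentile scale was also smaller at high level. The median SD was 0.64 in the dimmest decile and 0.35 in the brightest. Across the 11735 candidates, Spearman's correlation of level with SD over controls was -0.42, and with SD over the progesterone arrays it was -0.14. These are descriptions over probes measured on the same arrays.

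**Figure D1:**
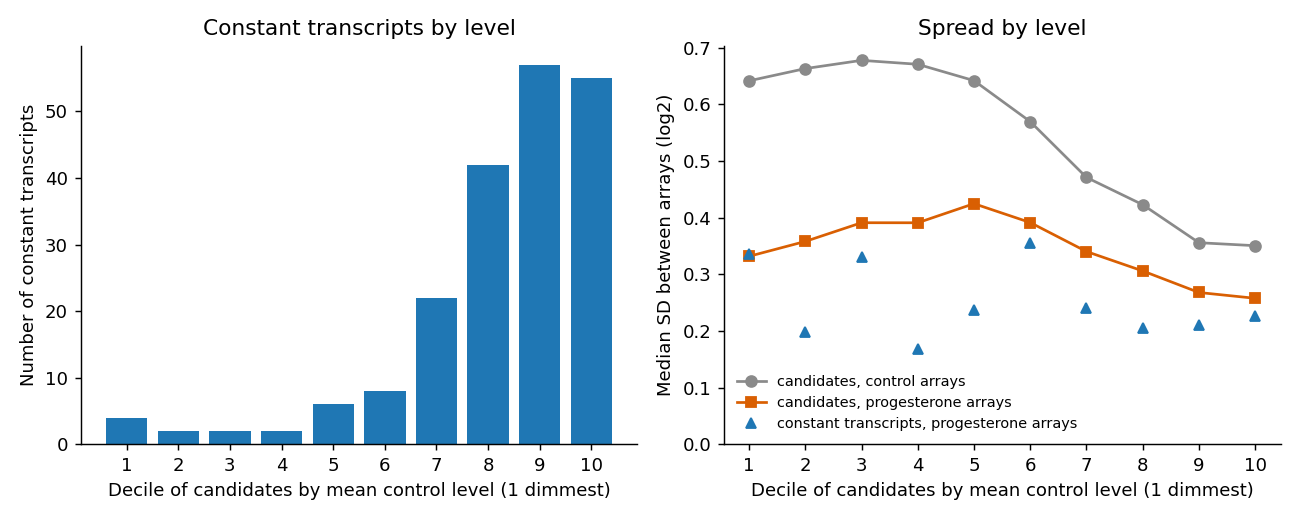
Left, number of the 200 constant transcripts (vertical axis) in each decile of the 11735 candidates by mean control level (horizontal axis). Right, median SD between arrays on the log2 scale per decile, for candidates over the 6 controls (grey), candidates over the 4 progesterone arrays (orange) and the constant transcripts over the 4 progesterone arrays (blue); the 3 brightest deciles hold 154 of the 200, and the points of the 4 dimmest deciles rest on 2 to 4 transcripts each.

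Among themselves the 200 covered a narrow band of spread. The SD over controls ran from 0.016 to 0.156 with a median of 0.13, which corresponds to a variation of 9.62% in signal, while the median candidate had an SD of 0.54, or 45.7%. The range from the lowest to the highest control was at most 0.47 for a constant transcript. For scale, the scanner software gave a median error of 0.14 (log2) for a single spot. Of the 200, 156 had an SD over controls below their own error estimate, as did 158 of the candidates, these 156 included. The estimate hardly differed between most constant transcripts, from 0.14427 at the lowest to 0.14428 at the upper quartile. Since the 200 were chosen for a small SD over controls, this count largely follows from the choice. It does not show that they varied less than the noise of a spot. Spike-in control probes repeated in 20 spots of 1 array varied there with a median SD of 0.047 (range 0.030 to 0.109) over the 42 combinations of probe and array that lay above the 75th percentile. That figure covers variation within 1 array only.

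By a clear margin, UF_Ppr_AF_112514, a probe for contig FJU.2449.C1, had the smallest SD over controls. Its 6 control values were 1.38 (number 2), 1.37 (4), 1.35 (5), 1.38 (7), 1.37 (8) and 1.34 (10), an SD of 0.016. That SD is the extreme of 11735 candidates and lies below the lowest SD of the repeated bright spike-in spots within 1 array (0.030). The margin can therefore not be read as a true difference in steadiness. With progesterone UF_Ppr_AF_112514 measured 1.41, 1.53, 1.47 and 1.32 in explants 4, 5, 7 and 8, an SD of 0.087. All 4 of those values lay outside the very narrow control range, 3 above it and 1 below. The difference of the means was 0.065 ± 0.17 (SE), with a 95% interval from -0.30 to 0.43 in limma, a linear model that borrows strength over all probes. In linear terms this allows a change from 0.81-fold to 1.35-fold.

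For the next 3 in rank some progesterone values also lay outside the control range. UF_Ppr_AF_103259 had control values from 1.91 to 2.05 (median 2.02, SD 0.052) and progesterone values of 1.98, 2.06, 2.79 and 1.86 in explants 4, 5, 7 and 8. Explant 7 alone was high, and the other progesterone values lay within or just beyond the control range. UF_Ppr_AF_113471, at 3.44 to 3.60 (median 3.48, SD 0.060) in controls, measured 3.28, 3.45, 3.23 and 3.55 with progesterone. Explants 4 and 7 were below all controls and the other two inside their range. UF_Ppr_AF_109612, at 2.21 to 2.38 (median 2.26, SD 0.061) in controls, measured 2.23, 2.18, 2.53 and 1.98 with progesterone, so that explants lay on both sides of the controls. Their differences were 0.17, -0.13 and -0.05, each with a 95% interval that holds 0.

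The brightest and the dimmest of the 200 differed by more than 10 log2 units in level. UF_Ppr_AF_115836 lay at 4.25 to 4.55 in controls (mean 4.38, SD 0.11) and at 4.45, 4.42, 5.20 and 4.38 with progesterone in explants 4, 5, 7 and 8. Again explant 7 was the high one. UF_Ppr_AF_110637 lay at 4.18 to 4.48 in controls and at 3.91, 4.40, 3.89 and 4.37 with progesterone, explants 4 and 7 being low. At the other end, UF_Ppr_AF_106344 (mean -6.49, SD 0.15) and UF_Ppr_AF_113066 (mean -6.42, SD 0.12) were well above background on every array but had a mean control signal of only 27.6 and 29.4 units. Their progesterone values were -6.77, -6.04, -6.03 and -6.59, and -5.96, -6.48, -6.35 and -6.16, and both groups overlapped. The 4 differences were 0.23, -0.18, 0.14 and 0.18, each with an interval that holds 0. With normexp background correction the differences of the 2 dim probes were -0.91 and -0.84, where the median over all fitted probes was -0.35 in place of 0.04, so they have no settled direction.

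The edge of the group was not a natural break. The last 3 inside were UF_Ppr_AF_112032, UF_Ppr_AF_101018 and UF_Ppr_AF_107873, with SDs over controls of 0.155, 0.155 and 0.156. The first 3 outside were UF_Ppr_AF_116826, UF_Ppr_AF_105036 and UF_Ppr_AF_110106, with 0.156, 0.157 and 0.157. With progesterone, the 3 inside had SDs of 0.29, 0.18 and 0.45, and the 3 outside 0.062, 0.12 and 0.15.

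The progesterone arrays entered the choice only through detection, so the spread over them shows whether constancy extends to other samples. In part it did. The SD over the 4 progesterone arrays had a median of 0.23 for the constant transcripts and 0.34 for the candidates. Of the 200, 157 lay below the candidates' median SD, 98 were among the lowest 25%, and 9 had values above those of 75% of the candidates. The typical constant transcript ranked at the 25th percentile of the candidates. Among the 200 candidates with the smallest progesterone SD were 8 of the constant transcripts. Those 200 are a small part of the 11735 candidates, so 8 of 200 is a larger share than among the candidates. Probes are not replicates, so no test was made, and 4 numbers occur in both groups, so the arrays may share a source.

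Part of this went with level, and part did not. In the brightest decile of candidates the median progesterone SD was 0.23 for the constant transcripts and 0.26 for all candidates. In decile 9 it was 0.21 against 0.27, and in decile 8 it was 0.20 against 0.31. Over deciles of control SD, the candidates' median progesterone SD rose from 0.23 in the steadiest to 0.68 in the most variable, with Spearman's correlation at 0.43 over the 11735. Inside the 200 the correlation was 0.02. The 200 were cut to a narrow band of control SD, which alone can hold such a correlation near 0. Whether the finer order carried over can thus not be read from it. The median of the constant transcripts was close to that of the whole steadiest decile of 1174 probes, 0.225 against 0.229.

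**Figure D2:**
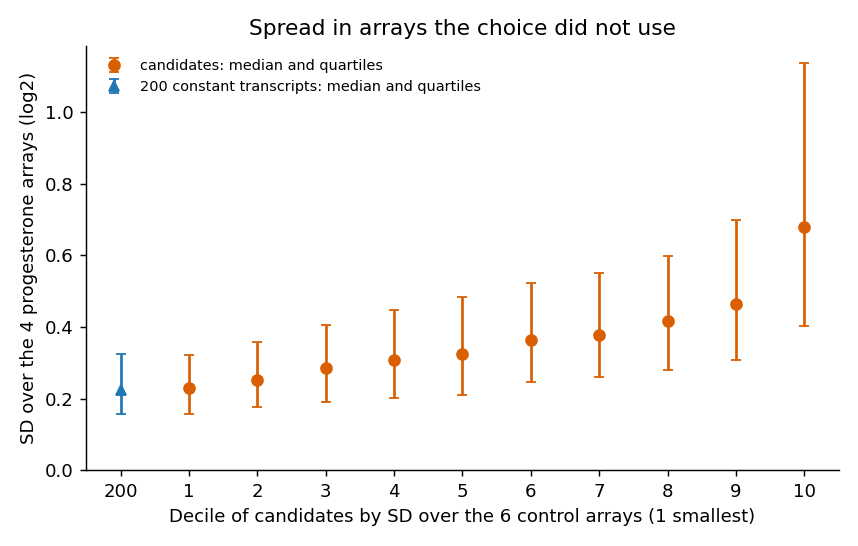
SD over the 4 progesterone arrays on the log2 scale (vertical axis) for deciles of the 11735 candidates ordered by SD over the 6 controls (orange) and for the 200 constant transcripts (blue, leftmost). Points are medians and bars span the quartiles; the median climbs from 0.23 to 0.68 over the deciles, and the constant transcripts sit beside decile 1.

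The 2 transcripts steadiest with progesterone were UF_Ppr_AF_114646 and UF_Ppr_AF_104338. The first measured 2.27, 2.28, 2.30 and 2.23 in progesterone explants 4, 5, 7 and 8 (SD 0.029) and 1.94 to 2.37 in controls (median 2.17, SD 0.14). The second measured -0.33, -0.37, -0.42 and -0.31 (SD 0.051) and -0.55 to -0.19 in controls (median -0.38, SD 0.14). For both, all 4 progesterone values fell inside the control range. Their differences were 0.11 (95% interval -0.28 to 0.50) and 0.03 (-0.36 to 0.42).

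The constant transcripts spread more widely with progesterone than in controls, the reverse of the candidates as a whole. For 171 of the 200 (85.5%) the progesterone SD exceeded the control SD, against 25.4% of the candidates. A small control SD was the condition for being chosen, so this contrast follows from the choice and is no sign of an effect. In the same way, all 4 progesterone values lay inside the control range for 16 of the 200 (8%) and for 53.9% of the candidates.

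The 4 progesterone arrays did not spread the constant transcripts equally. Explants 4 and 8 stayed nearest to the controls. The median size of deviation from the control mean was 0.109 over the 200 on explant 4 and 0.105 on explant 8, with all but 2 and all but 3 of the transcripts inside 1.5-fold. Their deviations had SDs of 0.20 and 0.32, the latter with 1 value of 3.74 in it. Explant 5 had a median size of 0.167, an SD of 0.28 and 191 inside 1.5-fold. Explant 7 had a median size of 0.298, an SD of 0.49, a median deviation of 0.17 and 167 inside 1.5-fold. It was the farthest of the 4 arrays for 109 of the 200 transcripts, against 40.1% of the candidates. On the same array 67.0% of candidates were inside 1.5-fold, against 84.1%, 77.8% and 82.7% on explants 4, 5 and 8. That share was the lowest of the 4 progesterone arrays but inside the range of the 6 control arrays, 62.5% to 75.2%.

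The constant transcripts deviated in 2 ways on explant 7. While its median deviation was positive, 6 transcripts fell more than 2-fold below their control mean on it: UF_Ppr_AF_116567, UF_Ppr_AF_110787, UF_Ppr_AF_117460, UF_Ppr_AF_116648, UF_Ppr_AF_118434 and UF_Ppr_AF_109396, at -2.46, -1.90, -1.76, -1.48, -1.32 and -1.21. These were named after their values were seen. Just 1 other of the 800 progesterone values was more than 2-fold away, that of UF_Ppr_AF_106666 on explant 8. Without explant 7 the median progesterone SD was 0.16 for the constant transcripts and 0.28 for the candidates. With quantile normalisation and in the authors' value table, explant 7 still had the largest SD of deviation of the 4 (0.50 and 0.49) and a median deviation of 0.26 and 0.27.

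**Figure D3:**
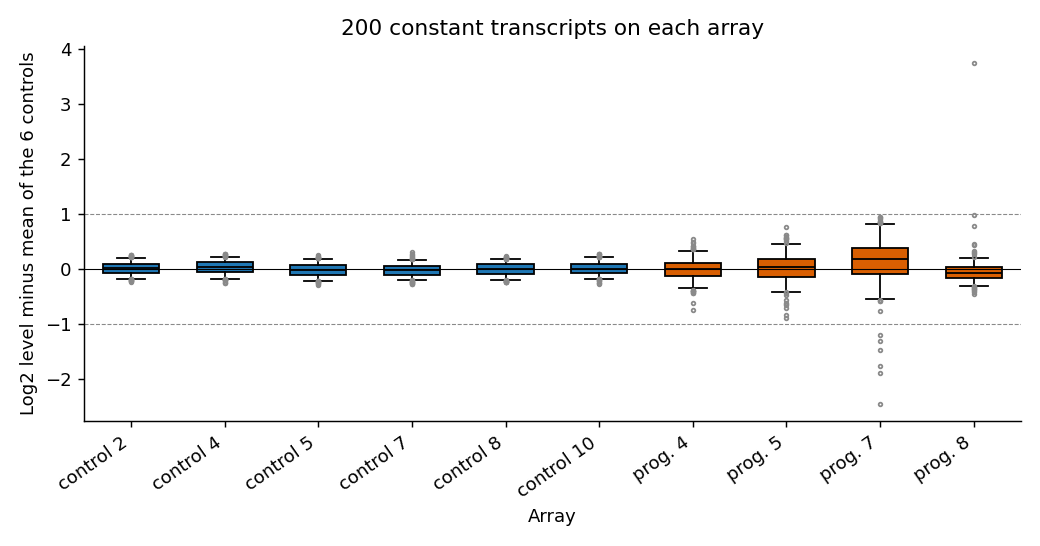
Log2 level minus the mean of the 6 controls (vertical axis) for the 200 constant transcripts on each array; boxes span the quartiles with the median, whiskers the 5th to 95th percentile, dots the rest, and dashed lines mark 2-fold. The control boxes (blue) are narrow because the transcripts were chosen for it; among the progesterone boxes (orange) that of explant 7 is the widest, with 6 transcripts below the lower dashed line.

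The comparison the design implies is progesterone against control. It was fitted with limma over the 14096 probes well above background on at least 4 arrays, all 200 among them, with p-values adjusted by the Benjamini-Hochberg method over all of them. None of the 200 constant transcripts passed an adjusted p of 0.05, where the share over all fitted probes was 0%, and the lowest adjusted limma p among them was 0.9997. At an unadjusted p under 0.05 there was 1, or 0.5%, against 1.22% of all fitted probes. With the title number as a block there was 0, against 1.93%, and 0 after adjustment. The progesterone mean was higher for 112 and lower for 88, with a median difference of 0.03. That median was -0.02 within slide 1 and 0.08 within slide 3, and -0.01 without progesterone 7, so no direction is drawn.

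No change passed the test, and the 95% interval of each transcript gives the changes compatible with its own values. An interval is not the smallest change that the adjusted test would have called. The intervals were made 1 transcript at a time and do not hold for all 200 together. The size of the difference had a median of 0.11, against 0.19 for the candidates, and a largest value of 1.09. The SE had a median of 0.19 (candidates 0.32), and the 95% interval reached a median of 0.42 to either side, a factor of 1.34. Difference and SE both draw on the control arrays by which the transcripts were chosen. Values smaller than the candidates' thus partly follow from the choice and are no sign of a smaller response to progesterone. For 195 of the 200 (97.5%) the interval lay inside a 2-fold change in either direction, as it did for 52.2% of all fitted probes. For 199 it lay inside 4-fold, against 93.1%. For 125 (62.5%) it lay inside 1.5-fold, against 8.07%. For 0 it lay inside 1.25-fold, also the count over all fitted probes (0%), because the narrowest interval in the fit still reached 0.37. The largest change that an interval allowed was at most 1.44-fold for the median transcript and 5.44-fold at the extreme.

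These intervals draw on the control SD by which the transcripts were chosen. With the spread taken from the progesterone arrays alone, which the choice did not use, 190 of the 200 lay inside 2-fold (67.5% of all fitted probes) and 95 inside 1.5-fold (16.7%). The differences themselves still draw on the control means. The 2-fold bound was thus little affected by the change of spread. With the title number as a block, which compares explants of the same number, 194 lay inside 2-fold (63.8%) and 61 inside 1.5-fold (6.79%). The 1.5-fold count also fell to 70, 78 and 62 without progesterone 4, 5 or 8, to 75 with median scaling, to 45 with slide as a block, and to 14 with normexp correction. From the progesterone spread alone it was 24, 19 and 15 without progesterone 4, 5 or 8. The shares of all fitted probes are not given for these alternatives. The falls can therefore not be read as particular to the constant transcripts.

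**Figure D4:**
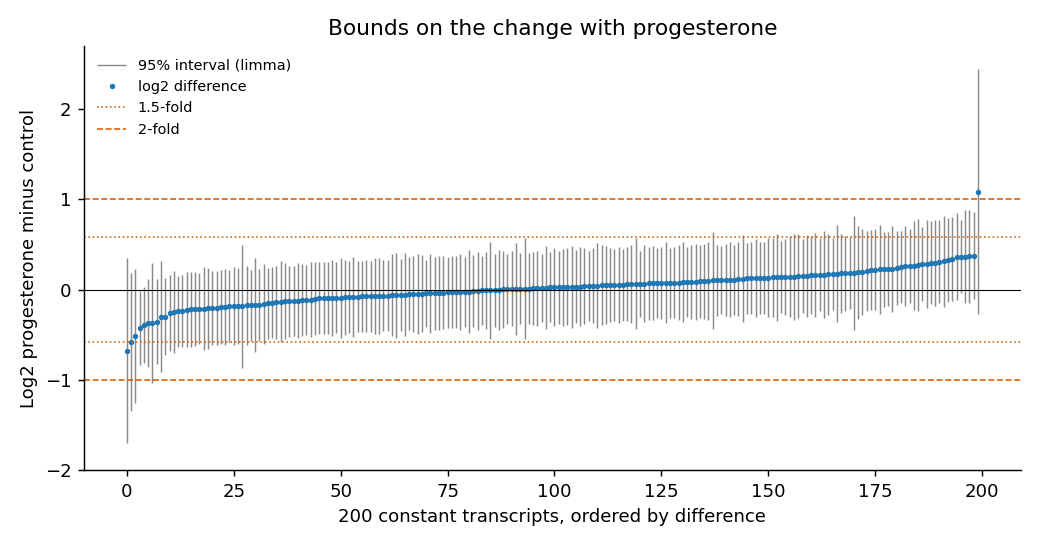
Log2 difference of progesterone minus control (blue dots) and its 95% interval from limma (grey lines) for the 200 constant transcripts, ordered by difference along the horizontal axis. Dotted and dashed orange lines mark 1.5-fold and 2-fold; 125 intervals lie inside the dotted pair, 195 inside the dashed pair, and 1 interval on the right reaches 2.44.

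The transcripts that measured farthest from the controls owed it to single explants to differing degrees. UF_Ppr_AF_106666, a dim probe for contig FJU.147.C16, was the 11th steadiest in controls, with -5.64 to -5.41 (median -5.46, SD 0.086). With progesterone it measured -5.17, -5.28, -5.43 and -1.75 in explants 4, 5, 7 and 8. Explant 8 alone stood out, by 3.74 over the control mean, with a raw spot signal of 910 units and no flag for an uneven spot. The difference was 1.09 ± 0.62 (SE), with a 95% interval from -0.27 to 2.44. It was 0.20 without progesterone 8 and -0.06 with normexp correction, so no direction is drawn. Within slide 1, which holds progesterone explant 8 and only 1 control, it was 2.04, and within slide 3 it was 0.16. The next highest was UF_Ppr_AF_106829, with 1.83 to 2.21 in controls (median 2.03) and 2.39, 2.19, 2.96 and 2.06 with progesterone. Explants 7 and 4 lay above all controls. The difference of UF_Ppr_AF_106829 was 0.38 ± 0.22 (SE), and 0.19 without progesterone 7. It was 0.64 within slide 3 and -0.08 within slide 1.

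Of those that measured lower, UF_Ppr_AF_116567 lay at 2.45 to 2.88 in controls (median 2.74, SD 0.15) and at 1.95, 3.09, 0.24 and 2.81 with progesterone in explants 4, 5, 7 and 8. Explant 7 was far below all controls, explant 4 below them and explant 5 above. The difference was -0.68 ± 0.46 (SE), with an interval from -1.70 to 0.35, and was -0.08 without progesterone 7. UF_Ppr_AF_110787, a probe for a sequence record, lay at 3.34 to 3.66 in controls (median 3.45) and at 3.28, 3.12, 1.57 and 3.60 with progesterone. Explant 7 was again lowest, and explants 4 and 5 were also below all controls. The difference was -0.58 ± 0.35 (SE), with an interval from -1.35 to 0.19, and was -0.14 without progesterone 7. The slides gave -1.58 and 0.19 for the first of these (slides 3 and 1), and -0.95 and -0.21 for the second.

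For 3 of the 200 (1.5%) the groups did not overlap, against 0.241% of all fitted probes. All 3 were lower with progesterone, where the background in that direction was 0.121%. A narrow control range makes such a separation easier to reach, so the higher share cannot be read as a property of these transcripts. The 3 are named because of this outcome, and the first and second described also had the smallest p of the 200.

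UF_Ppr_AF_105271, for contig FJU.2068.C2, lay at 3.56 to 3.83 in controls (median 3.67, SD 0.11) and at 3.40, 3.07, 3.09 and 3.49 with progesterone in explants 4, 5, 7 and 8. Explants 5 and 7 were lowest, and explant 8 came within 0.1 of a control. Its log2 difference was -0.42 ± 0.19 (SE), with an interval from -0.83 to -0.015, a limma p of 0.0432 before and 0.9997 after adjustment (adjusted p). With the spread taken from the progesterone arrays alone, its interval held 0 (-0.88 to 0.037). The difference was -0.25 with quantile normalisation and -0.21 with the authors' values. It was -0.46 with median scaling and -0.29 with normexp correction. UF_Ppr_AF_107082, for contig FJU.8340.C2, lay at 1.42 to 1.80 in controls (median 1.56, SD 0.14) and at 1.26, 0.86, 1.33 and 1.24 with progesterone. Explant 5 was lowest, and the difference was -0.39 ± 0.19 (SE), with an interval from -0.81 to 0.024. UF_Ppr_AF_104813, for contig FJU.3963.C2, lay at 3.48 to 3.84 in controls (median 3.53) and at 3.39, 2.68, 3.44 and 3.41 with progesterone. Explant 5 was far below and the other 3 were just under the lowest control, for a difference of -0.35 ± 0.21 (SE). With the number as a block the 3 differences were -0.38, -0.39 and -0.31, each with an interval that holds 0. Within both slides all 3 were negative, between -0.57 and -0.07. Because the groups of these 3 do not overlap, the negative sign was fixed beforehand in each of these comparisons and adds no evidence.

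What the constant transcripts share beyond the values that chose them is limited to their identifiers. Assembly contigs made up 194 of the 200 (97%) and 82.8% of the candidates, and sequence records 6 (3%) and 17.0%. Level went along with much of this: among candidates above the 75th percentile 94.6% were contigs, and among the constant transcripts above it 96.8%. An identifier that carries the letters rc was found for 31 (15.5%), against 22.0% of the candidates and 18.7% of those above the 75th percentile. By position the 200 were spread over the array, with 54, 47, 54 and 45 in its 4 quadrants.

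The 194 contigs came from 194 different assembly clusters, so no pair of constant transcripts shared a cluster. For 40 of them the array held other contigs of the same cluster, 50 in all, of which 35 were candidates. Those 35 had SDs over controls from 0.33 to 3.33 with a median of 0.51, at the 46th percentile of all candidates, and 20 of them were steadier than the median candidate. With level left out of account, these 35 thus varied about as much as candidates in general. Their mean control levels ran from -5.94 to 3.08, and the candidates' median SD was 0.64 in the dimmest decile and 0.35 in the brightest. The 35 were not compared with candidates of equal level, so whether they were steadier than those was not tested.

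Which 200 transcripts counted as most constant depended on the scale. With quantile normalisation 135 of the 200 were chosen again and with the authors' values 133, and 124 were chosen on both. With median scaling 45 were chosen again, with normexp correction 62, and with scaling to the 25th percentile 0. The set chosen with the 25th percentile had a median level of -3.55 on the scale used here, against 1.13. Control arrays differed in the width of their signal distribution, the 75th percentile lying 4.99 to 5.95 log2 units above the 25th, while on the progesterone arrays it lay 5.42 to 5.52 above. Constancy was therefore measured relative to a bright reference level. Even so, 190 of the 200 stayed in the steadiest decile of the candidates by SD over controls after quantile normalisation. The count was 189 with median scaling, 189 with the authors' values, 139 with normexp correction and 43 with 25th percentile scaling.

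Single control explants mattered as well. Without control 5, 97 of the 200 were chosen again, and without control 2, 98. Without controls 4, 7, 8 or 10 the counts were 127, 127, 139 and 120. A set of 55 was chosen in all 6 of these. Just 15 were chosen under the 75th percentile, quantile, median and normexp scales and in the authors' value table alike. Of these, UF_Ppr_AF_112514 had the smallest SD over controls. These 15 had control levels from -0.55 to 1.38 and differences with progesterone from -0.24 to 0.33. Their median SD over the progesterone arrays was 0.30, against 0.23 for all 200 and 0.34 for the candidates. Being chosen on all these scales thus did not go with a smaller spread on the progesterone arrays.

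**Figure D5:**
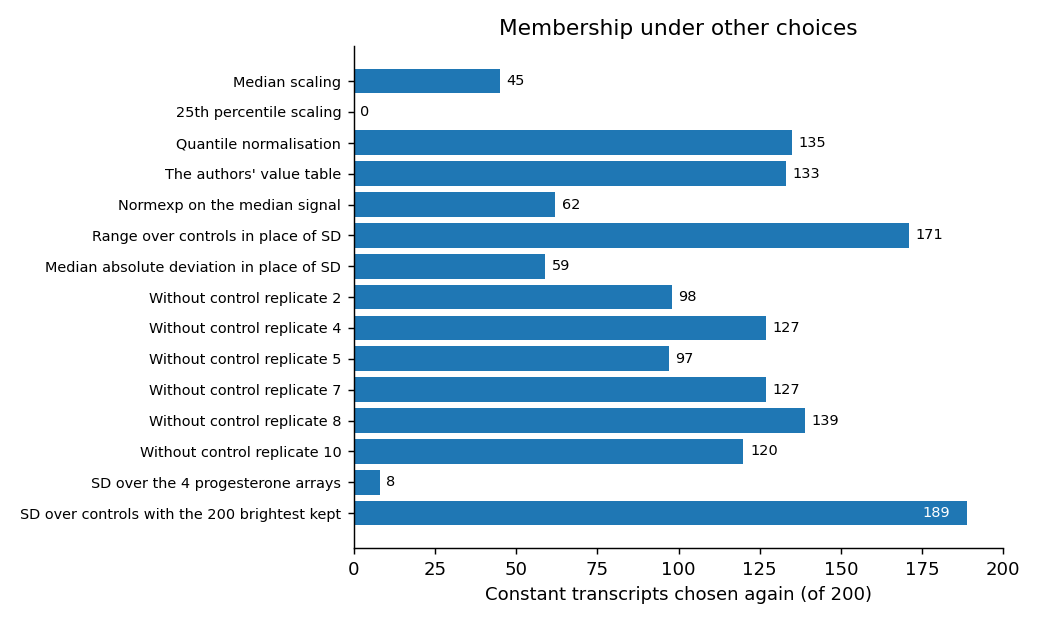
Number of the 200 constant transcripts chosen again (horizontal axis) when the rule is applied to values scaled in another way, with another measure of spread, without 1 control explant, or on the progesterone arrays. Counts run from 0 with 25th percentile scaling to 189 when the 200 brightest probes are kept.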

How the data were processed

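Per the file headers, the scanner files hold linear spot intensities from Agilent Feature Extraction 10.7.1.1, background-subtracted and detrended within 1 array, with the software's error estimate and flags for spots well above background, saturated or uneven. A second source was the authors' deposited table of log2 values, whose normalisation method is not given in any source used here. Its columns had medians of 8.24 to 8.34 over the probes, were not centred by gene and ran in the direction of the signal, since each ranked probes as its own array did (Spearman at least 0.9997) and no other (at most 0.985).

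Each probe had 1 spot, so averaging by probe changed nothing. Differences, intervals (95%) and two-sided p-values came from limma 3.58.1 (lmFit, then eBayes; R 4.3.3) with no covariate. The precision of array values is limited by the number of arrays. The fit was also run on simulated data with independent noise on each array. Same-numbered explants deviated together in the real data, so that run cannot vouch for the fit here. Other analyses used Python 3.11.15 with numpy 2.4.6 and pandas 2.3.3.

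Same-numbered explants of the 2 groups deviated together from their group means over the fitted probes, with correlations of 0.31 to 0.57. Between different shared numbers they were at most -0.04. Deviations from a group mean sum to 0, so positive pairs push the others below 0 and widen this contrast. Numbers 7 and 8 (0.37 and 0.31) each shared a slide across groups, while numbers 4 and 5 (0.57 and 0.37) did not. The numbers thus pair the samples, as a finding from the data. No pair of arrays held identical values. The 200 transcripts, the lists and the tests were chosen with earlier results of these data known. Gene lists and cell type markers were set out, but with no gene names 0 could be used. Named probes are those ranked first by control SD, level, difference, progesterone SD or p, and those at the edge of the 200. Alternatives were other scalings, filters, variance models and blocks, normexp (offset 50, on the raw median spot signal in place of the mean signal planned), and leaving out each array.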

Additional observations from a re-analysis of the deposited data

Results flagged for a closer look

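In 52 sets of values (each named probe in each group, and array summaries of the constant transcripts and of the candidates in each group), 4 held a sample far from the rest, where chance gives about 1 in 20. All 4 were progesterone values of named probes. UF_Ppr_AF_106666 and UF_Ppr_AF_104813 had been named for outcomes that include such values. UF_Ppr_AF_115836 had been named for its control level and UF_Ppr_AF_116826 for its rank by control SD. UF_Ppr_AF_106666 stood at -1.75 in explant 8, a gap of 0.931 of the group's range. UF_Ppr_AF_115836 stood at 5.20 in explant 7, a gap of 0.916. UF_Ppr_AF_104813 stood at 2.68 in explant 5, also a gap of 0.931. UF_Ppr_AF_116826, ranked just outside the 200, stood at 3.36 in explant 7, a gap of 0.887 of a range that is itself small. What set these samples apart was not tested.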

How the results depend on the processing

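The count of constant transcripts at an adjusted limma p under 0.05 was 0 under every alternative run, and the lowest adjusted p was between 0.762, within slide 1, and 0.99998. At an unadjusted limma p under 0.05 the counts were 0 to 3 of the 200. The share over all fitted probes was 0.61% with normexp correction to 2.98% with slide as a fixed block, leaving slide 1 aside. The count of 3 was without progesterone 8, where that share was 1.06%. The count inside 2-fold (195) was between 175 and 199 except within slides 1 and 3, where it was 75 and 22 with fewer arrays. The count inside 1.5-fold (125) was 61 with the number as a replicate block, 75 with median scaling, 14 with normexp correction, 45 with slide as a fixed block, and 0 within slide 1 and 0 within slide 3. Leaving out 1 array gave 62 to 126, and 15 to 105 with the progesterone spread alone (95). For most of these alternatives the share of all fitted probes is not given, so the changes cannot be called particular to the constant transcripts. Of the 200, the count chosen again was 45 with median scaling, 0 with 25th percentile scaling, 62 with normexp correction, 133 with the authors' values, 59 by median absolute deviation, 8 on the progesterone arrays, and 97 to 139 without 1 control. Of 460 differences of named transcripts under these alternatives, 28 moved by more than the SD between replicates. All 28 were with quantile normalisation, the authors' values, normexp correction or within slide 1 or 3. The filters and the variance model cannot change a difference, so part of the 460 was fixed beforehand and the share is no measure of robustness. Of all 200 differences, 55 had the opposite sign with normexp correction. The differences of UF_Ppr_AF_113471 and UF_Ppr_AF_110637 (-0.13 and -0.18) were 0.03 and 0.01 with quantile normalisation and 0.08 and 0.07 with the authors' values. The replicate block changed no call. Values within slides, on the 8 arrays of shared numbers and with the brightest kept were chosen after seeing the data. The causes of these changes were not tested.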

Other observations

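Explants of the same number were compared directly as well. The median log2 difference of the constant transcripts, progesterone minus control, was -0.04, 0.03, 0.19 and -0.06 for numbers 4, 5, 7 and 8, and 200, 190, 164 and 195 of the 200 were less than 1.5-fold apart. Among the candidates 80.2%, 57.0%, 68.3% and 83.7% were. Number 5 thus had the fewest candidates inside 1.5-fold and number 7 the fewest constant transcripts.

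Sets of 200 chosen on other scales also had a larger SD over the progesterone arrays than over controls on their own scale. Each set was chosen for a small SD over controls on that scale, so this contrast again follows from the choice. The medians were 0.26 against 0.17 with median scaling, 0.26 against 0.20 with 25th percentile scaling, 0.23 against 0.13 with quantile normalisation and 0.25 against 0.17 with normexp correction. The candidates' median progesterone SD on those scales was 0.36, 0.34, 0.35 and 0.31.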
